A study of Mus musculus with 48 samples.

Results

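The genes described here are 10 components of Toll-like receptor signalling, chosen by symbol: the receptors *Tlr2*, *Tlr3*, *Tlr4* and *Tlr7*, the co-receptor *Cd14*, the adaptors *Myd88* and *Ticam1* (whose protein is called TRIF), the kinases *Irak1* and *Irak4*, and the ubiquitin ligase *Traf6*. All 10 had a row in both deposited tables, which held 27086 genes for C57BL/6J (B6) mice and 18943 genes for *APOE*-TR mice. The libraries were bulk RNA-seq of whole cerebral cortex from 48 mice, 4 in each of 12 groups of genotype, sex and exposure. B6 mice, females and males, breathed re-aerosolized nPM (nano-sized particulate matter collected beside an urban freeway) or filtered air as controls for 8 weeks and are labelled as 4 months old. *APOE*-TR mice, in which human *APOE*3 or *APOE*4 replaces mouse *Apoe* by gene targeting on the B6 background, breathed nPM or filtered air for 15 weeks and are labelled as 6 months old. Each exposure ran for 5 h a day on 3 days a week. Every *APOE*-TR mouse, controls included, carried a human allele and no mouse *Apoe*, and every B6 mouse carried mouse *Apoe*. The study states that its exposures used different batches of nPM. The B6 and *APOE*-TR mice therefore differed in age, length of exposure, nPM batch, *Apoe* locus and table at once. They were not compared by a test.

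Toll-like receptors are sensors of innate immunity that recognize conserved microbial molecules and, in injured tissue, molecules released by damaged cells. *Tlr2* and *Tlr4* sit at the cell surface, where *Tlr4* binds bacterial lipopolysaccharide with the help of *Cd14*, whereas *Tlr3* and *Tlr7* sit in endosomes and bind double-stranded and single-stranded RNA. Most receptors signal through the adaptor MyD88, which assembles IRAK4, IRAK1 and TRAF6 and leads to NF-κB and cytokine genes. *Tlr3* signals through TRIF instead, and *Tlr4* uses both adaptors. In brain, microglia, the resident macrophages, are the best known source of *Tlr2*, *Tlr4*, *Tlr7* and *Cd14*, and astrocytes and neurons also use parts of the pathway.

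The 250 bases that precede the start site are shown for 3 members, from RefSeq on GRCm38.p6: *Tlr3* and *Ticam1*, the members that passed the test between *APOE* alleles, and *Tlr2*, a receptor gene with a match to the NF-κB motif. All 3 lie on the minus strand, at chr3:83841609-83841858 for *Tlr2*, chr8:45410381-45410630 for *Tlr3* and chr17:56276768-56277017 for *Ticam1*, and each is written 5′ to 3′ on that strand with motif matches in capitals. On mm10 the *APOE*-TR table placed *Tlr2* at chr3:83836272-83841609, *Tlr3* at chr8:45395665-45410540, whose end lies inside the window shown, and *Ticam1* at chr17:56269462-56276768. It placed *Irak1* and *Tlr7* on chromosome X, *Traf6* on 2, *Tlr4* on 4, *Myd88* on 9, *Irak4* on 15 and *Cd14* on 18.
Tlr2: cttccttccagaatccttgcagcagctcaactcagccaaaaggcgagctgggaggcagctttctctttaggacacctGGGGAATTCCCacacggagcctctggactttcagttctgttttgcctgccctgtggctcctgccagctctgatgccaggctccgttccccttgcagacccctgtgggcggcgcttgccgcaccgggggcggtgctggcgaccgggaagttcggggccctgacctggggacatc
Tlr3: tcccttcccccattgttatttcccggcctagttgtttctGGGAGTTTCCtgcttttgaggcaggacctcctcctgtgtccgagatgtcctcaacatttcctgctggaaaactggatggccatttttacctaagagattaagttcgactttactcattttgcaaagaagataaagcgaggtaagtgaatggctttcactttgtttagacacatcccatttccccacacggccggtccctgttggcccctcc
Ticam1: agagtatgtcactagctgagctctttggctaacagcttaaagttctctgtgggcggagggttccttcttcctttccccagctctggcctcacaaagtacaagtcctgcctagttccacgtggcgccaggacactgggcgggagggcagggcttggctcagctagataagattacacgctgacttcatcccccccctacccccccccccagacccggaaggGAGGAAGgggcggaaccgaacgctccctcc
In the first 2 windows the capitals mark matches to the NF-κB motif, and in *Ticam1* they mark the purine box of ETS factors, GAGGAAG. *Tlr2* held 2 overlapping NF-κB matches and *Tlr3* held 1. The same search on both strands covered 4 motifs and 8 windows of the 7 members in the RefSeq table (*Irak1* has 2 start sites), and *Tlr4*, *Tlr7* and *Cd14* were not searched. *Myd88* held 1 match to the interferon-type motif (GAAA, any 2 bases, GAAA), *Traf6* held 2 matches to the ETS box, and no window held the AP-1 motif TGANTCA. *Irak4* and *Irak1* held none of these letters. Of 32851 mouse promoter windows of the same length, 3.9% held the NF-κB motif, 6.75% the AP-1 motif, 2.98% the interferon-type motif and 10.6% the ETS box, so these matches describe the sequences only.

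The members were read at different depths in the tables. *APOE*-TR libraries held between 17.8 and 31.3 M reads, with every female library (17.8 to 22.3 M) shallower than every male one (22.4 to 31.3 M), and B6 libraries held between 2.05 and 24.4 M. All 10 members were above the value of a gene without reads in all 32 *APOE*-TR mice, from at least 13 reads for *Irak4* to as many as 1545 for *Irak1*. In B6 mice 6 members (*Tlr3*, *Tlr7*, *Myd88*, *Ticam1*, *Irak1* and *Traf6*) were above it in all 16 libraries. *Tlr4* had no reads in 5 B6 mice, *Tlr2* in 3, and *Cd14* and *Irak4* in 1 each, so these 4 genes were left out of every fit that held all B6 mice. All 7 neuronal markers listed were found in every group, at summed group means of 3157 to 6210 CPM (read counts scaled to library size). Of the *APOE*3 female controls 2 mice, numbered 61 and F6, stood apart from the other *APOE*-TR mice. Their CPM summed over the table to 880442 and 792914, against 670445 to 739008 in the others, and the slopes of their levels on transcript length, compared with the other mice, were −0.44 and −0.32, against −0.18 to 0.13. The nPM differences of *Tlr2*, *Tlr4*, *Cd14* and *Tlr3* in *APOE*3 females and the allele calls are given with and without both mice.

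*Irak1* was the most abundant member and *Irak4* the least in *APOE*-TR cortex. On a scale of CPM per kilobase of transcript, over 32 mice, the level of *Irak1* was 6.85 ± 0.472 (SD, n = 32), and every *Irak1* value lay above every value of the other members. *Tlr3* (2.38 ± 0.387) and *Traf6* (2.24 ± 0.349) followed and were not separated, since *Tlr3* was the higher of the pair in 14 of 32 mice.
Next came both adaptors, *Ticam1* at 1.62 ± 0.239 and *Myd88* at 1.46 ± 0.179, with *Ticam1* above *Myd88* in 25 of 32 mice. The genes best known from microglia were lower: *Cd14* was at 1.37 ± 0.59, *Tlr7* at 0.873 ± 0.244, *Tlr2* at 0.467 ± 0.194 and *Tlr4* at 0.387 ± 0.173, and their neighbours in this order overlapped. *Irak4*, at 0.149 ± 0.0245, was below *Tlr4* without overlap. In B6 mice *Irak1* was again first, at 2.92 CPM per kilobase, and *Ticam1* (2.2) and *Traf6* (1.65) came next, but every neighbouring pair overlapped across the 16 mice. *Tlr4* in B6 mice ranged from no reads in a control female sequenced to 22.4 M reads to 125 reads (4.36 CPM) in an nPM female, and its 5 libraries without reads were not confined to the shallow ones.

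**Figure D1:**
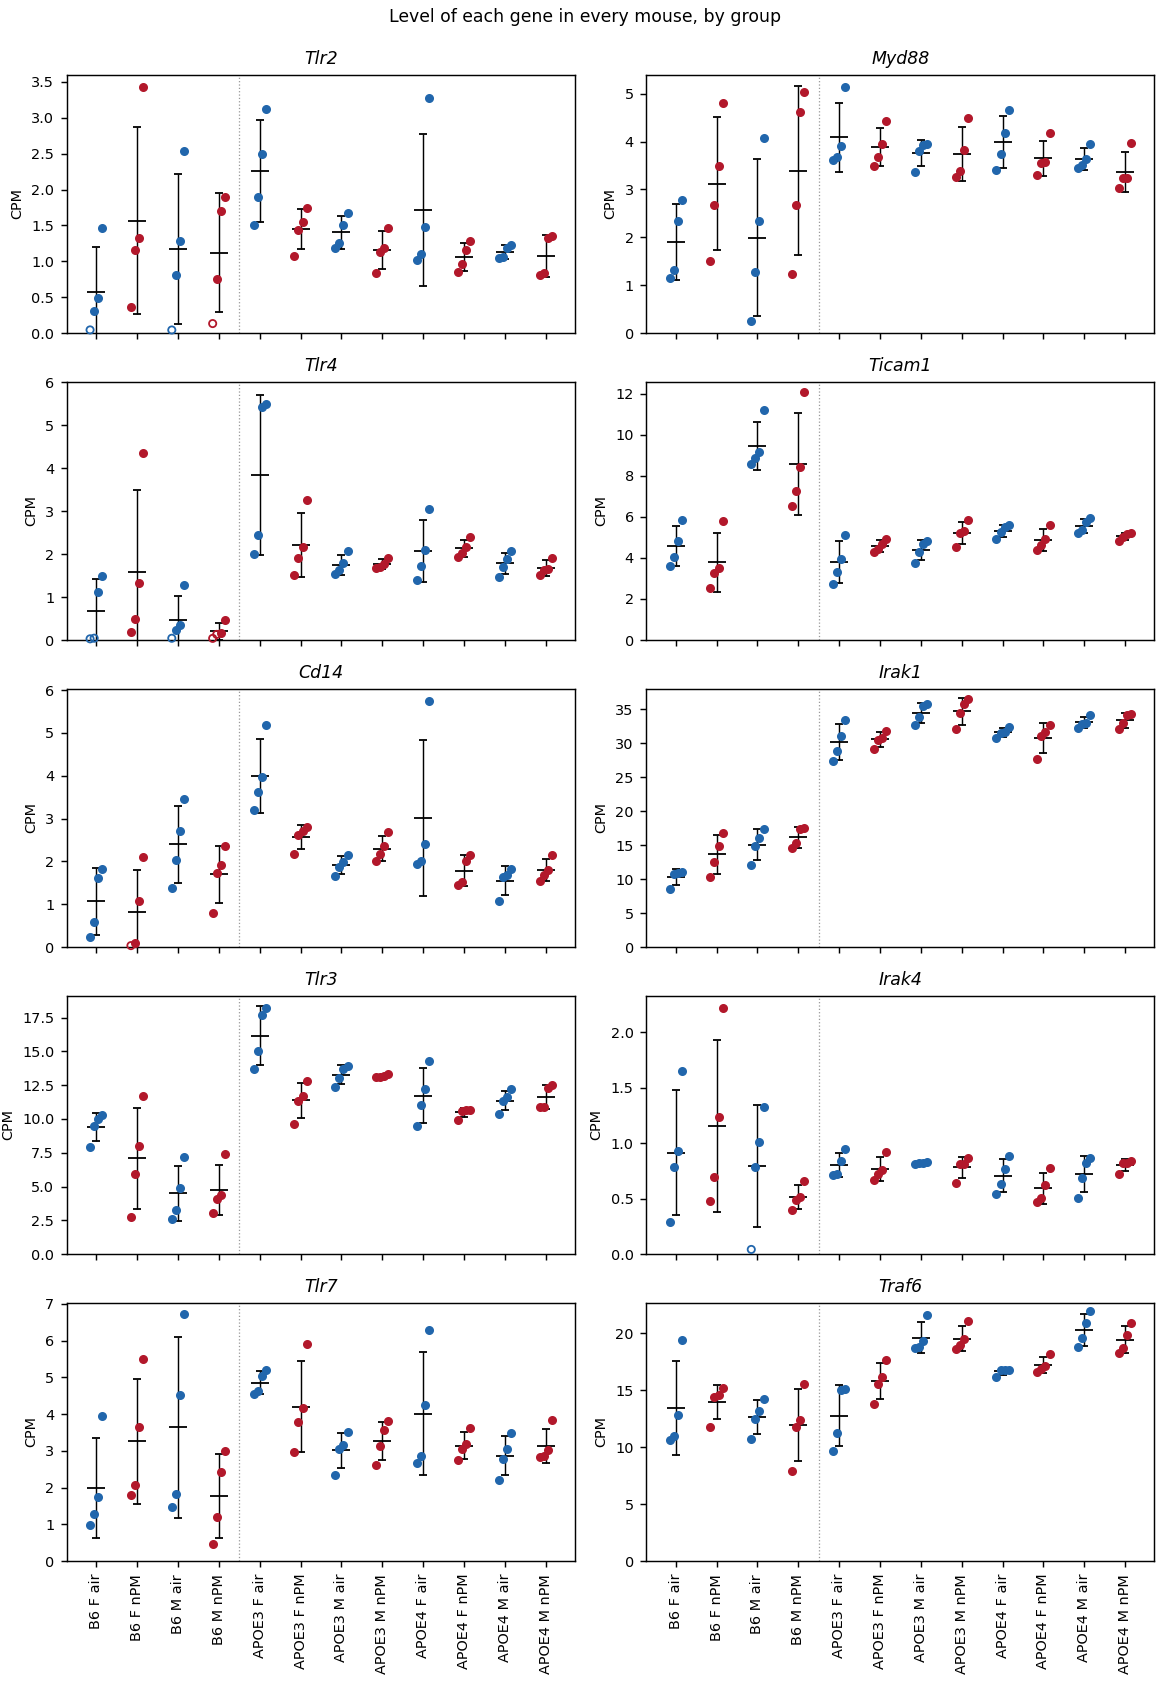
Level of each of the 10 genes in the 12 groups, in CPM. Points are single mice (blue for filtered air, red for nPM, open where the gene had no reads), bars across are group means with SD over 4 mice (drawn no lower than 0 in some B6 groups), and the dotted line separates the B6 table from the APOE-TR table. A reader should see the wide spread of Tlr4, Cd14 and Tlr2 in APOE-TR females and the nearly even levels of Irak1 across the APOE-TR groups.

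No member passed the threshold for nPM over all mice of either experiment or in any of the 6 pairs of groups. *Tlr3* and *Ticam1* passed it in *APOE*3 mice in the model that gave each allele its own nPM difference, described with the alleles. Calls for nPM were made at an unadjusted p under 0.005 in limma, a linear model fitted across all genes on log2(CPM + 0.5). Over 48 mice 0 of the 6 tested members were called, against 1.48% of 11097 genes, and over 32 *APOE*-TR mice 0 of 10 were called, against 0.695% of 15972. Over 16 B6 mice 0 of 6 were called, against 0.539% of 13916. The median difference (nPM minus control) over the members was −0.05 in *APOE*-TR mice and −0.06 in B6 mice, and over all genes tested it was near 0 in both.

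Of the 10 genes *Tlr2*, a surface receptor, had the lowest p for nPM in *APOE*-TR mice. It was 1.19 CPM with nPM against 1.63 CPM in controls, a log2 difference of −0.27 (SE 0.10, unadjusted p = 0.0102, adjusted p = 0.277). In *APOE*3 females the *Tlr2* values were 1.89, 3.12, 1.5 and 2.49 CPM in controls and 1.75, 1.55, 1.44 and 1.08 CPM with nPM, so the groups overlapped. In *APOE*4 females they were 1.1, 3.28, 1.02 and 1.48 CPM in controls and 1.28, 0.847, 0.965 and 1.16 CPM with nPM, and 1 control mouse, 21, lay above the other 7 mice. *Tlr2* was called in 1 of the 32 fits that left out a mouse, the fit without *APOE*4 female control 26, at −0.30 with an unadjusted p of 0.0046.
*Tlr4* values in *APOE*3 females were 2.01, 5.48, 2.44 and 5.43 CPM in controls and 3.26, 1.9, 1.51 and 2.17 CPM with nPM, an overlap again. Without the mice numbered 61 and F6 the differences in *APOE*3 females were −0.17 for *Tlr2* and −0.04 for *Tlr4*. The *Tlr4* difference over all *APOE*-TR mice was −0.13 (SE 0.11, unadjusted p = 0.236). *Tlr4* in *APOE*-TR males stayed between 1.47 and 2.07 CPM in all 16 mice, whatever the allele and exposure.

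*Cd14*, which hands lipopolysaccharide to *Tlr4*, had opposite signs in the sexes of *APOE*-TR mice. *APOE*3 female controls were at 3.63, 5.19, 3.2 and 3.96 CPM, and the corresponding nPM females at 2.81, 2.72, 2.61 and 2.17 CPM, so that every exposed mouse was below every control. The log2 difference was −0.48 (SE 0.14, unadjusted p = 0.0088, adjusted p = 0.229), short of the threshold, and an exact two-sided permutation test gave p = 0.0286, the smallest that 4 mice against 4 allow. In this pair of groups 6.88% of all genes did not overlap, and 2 of the 10 members (*Cd14* and *Tlr3*) did not. Without the control mice 61 and F6 the *Cd14* difference was −0.34 (unadjusted p = 0.0498).
In *APOE*3 males *Cd14* was 1.98, 1.88, 1.67 and 2.16 CPM in controls and 2, 2.36, 2.68 and 2.17 CPM with nPM. In fits of 1 sex, added after the data were seen, the *Cd14* difference was −0.50 in *APOE*-TR females (unadjusted p = 0.0075) and 0.19 in males (unadjusted p = 0.0362), neither past the threshold. In B6 mice *Cd14* had means of 0.828 CPM with nPM and 1.07 CPM in controls for females and 1.7 and 2.4 CPM for males (−0.43, unadjusted p = 0.27), below control in both. The difference between the sexes was not tested for *Cd14*, since B6 mice without reads kept it out of that fit.

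*Tlr3*, the receptor for double-stranded RNA, also separated nPM from control mice in *APOE*3 females. Controls were at 15, 17.7, 13.7 and 18.2 CPM and nPM females at 12.8, 11.3, 9.64 and 11.7 CPM, with no overlap. The log2 difference was −0.43 (SE 0.12, unadjusted p = 0.00783, adjusted p = 0.229), which missed the threshold in a stratum where 0.665% of genes were called, and the exact p was again 0.0286. Without the control mice 61 and F6 it was −0.32 (unadjusted p = 0.052). DESeq2 on the recovered reads, an alternative, called it (−0.44, unadjusted p = 0.00164), as it called *Cd14* there (−0.57, unadjusted p = 0.00428), and it called 2.84% of all genes in that pair.
In *APOE*3 males *Tlr3* was 13.9, 12.4, 13.7 and 13 CPM in controls and 13.1, 13.2, 13.3 and 13.1 CPM with nPM, so the exposed mice lay within the control range. *APOE*4 females were at 12.2, 14.3, 11 and 9.48 CPM without nPM and at 10.6, 10.7, 9.95 and 10.7 CPM with it. In B6 females *Tlr3* was 9.49, 10, 7.93 and 10.3 CPM in controls and 5.94, 2.77, 11.7 and 8 CPM with nPM, a spread with nPM that held the control values. The test of whether the nPM difference varied with sex over 48 mice gave −0.39 (females minus males) for *Tlr3* with an unadjusted p of 0.0511, and 0 of 6 members were called, against 1.97% of genes.

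**Figure D2:**
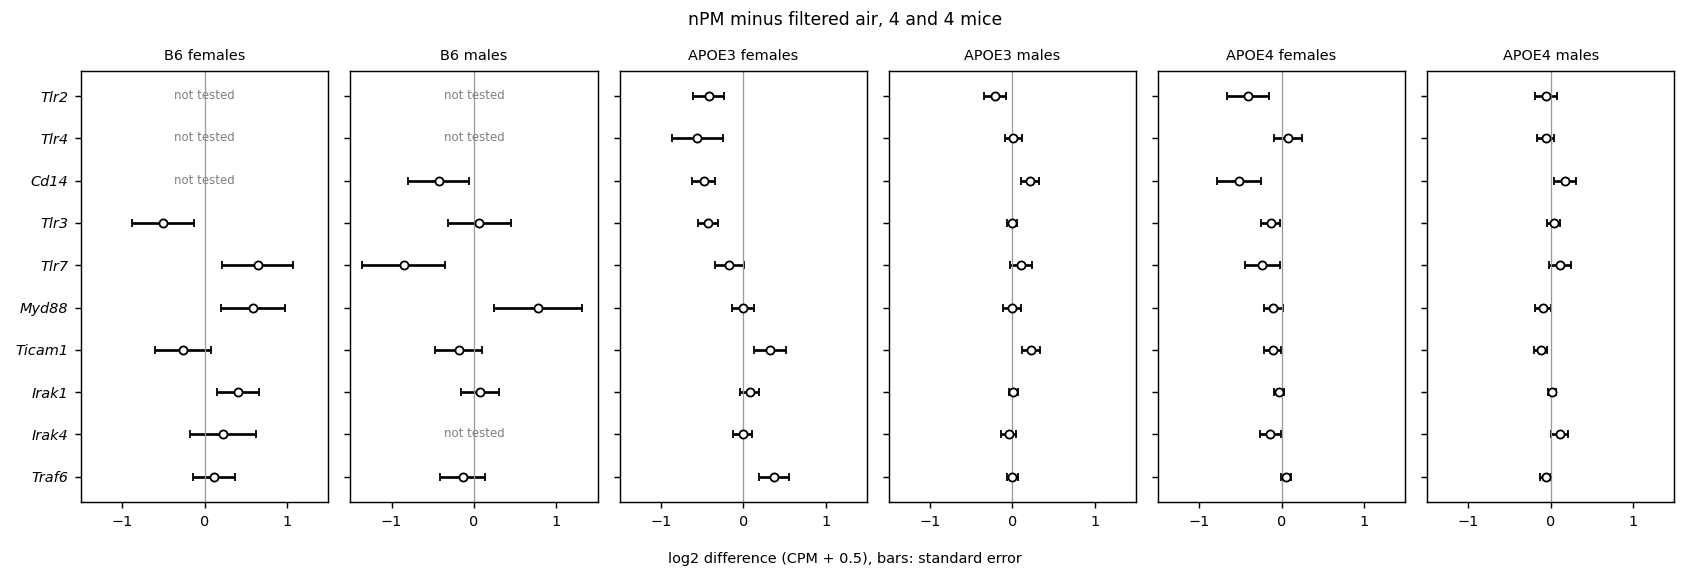
Log2 difference (nPM minus control) of each gene, in each of the 6 pairs of groups of 4 mice, with bars of 1 SE. Open points did not pass the threshold, and genes marked as not tested had no reads in at least 1 mouse. A reader should see Tlr3 (−0.43) and Cd14 (−0.48) below 0 in APOE3 females and the wide bars of the B6 mice.

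The remaining members gave smaller or noisier differences with nPM. *Tlr7*, the endosomal receptor for single-stranded RNA, was 3.44 CPM with nPM and 3.69 CPM in controls over *APOE*-TR mice (log2 difference −0.05, unadjusted p = 0.629). *Myd88* in B6 mice had the largest difference of the 6 tested there, with means of 1.94 CPM in controls and 3.26 CPM with nPM (0.68, SE 0.34, unadjusted p = 0.056). Its B6 female values were 2.35, 1.15, 2.78 and 1.32 CPM in controls and 1.51, 4.81, 2.68 and 3.49 CPM with nPM, and its B6 male values 0.254, 2.35, 4.08 and 1.27 CPM in controls and 4.62, 1.24, 2.68 and 5.03 CPM with nPM, so both pairs overlapped. In *APOE*-TR mice the *Myd88* difference was −0.05 (SE 0.05).
*Irak1*, the kinase downstream of MyD88, was 32.3 CPM in both exposures of the *APOE*-TR mice, and *Irak4*, the kinase that acts before it, was 0.736 CPM with nPM and 0.763 CPM in controls. *Traf6* was 18 CPM with nPM and 17.4 CPM in controls (0.09, SE 0.06). Both kinases and *Traf6* thus differed by less than the spread between mice in *APOE*-TR cortex. In B6 females, sharing the spread over all 12 groups called *Irak1* as higher with nPM (0.40, unadjusted p = 0.00186), with 10.8, 11, 10.9 and 8.49 CPM in controls and 12.5, 16.8, 14.9 and 10.3 CPM with nPM, under a setting that called 10.6% of all genes in that pair. The main fit of those 8 mice did not call it, and 0 of 7 tested members were called there, against 1.2% of genes. In B6 males 0 of 7 were called (0.24% of genes). All 10 members were tested in the *APOE*-TR pairs, with 0 called in *APOE*3 males (0.154%), *APOE*4 females (0.272%) and *APOE*4 males (0.178%). Over these 6 pairs of groups, 60 exact tests gave 3 at the smallest possible p, and the lowest adjusted p was 0.572. The third, beside *Cd14* and *Tlr3*, was *Ticam1*, lower with nPM in *APOE*4 males, where it was the only member to separate after scaling, as did 2.42% of genes. No members separated in the other pairs, where the shares of genes that did so were 6.56% for female and 2.22% for male B6 mice, 1.42% for *APOE*3 males and 3.49% for *APOE*4 females.

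*APOE* allele was associated with *Tlr3* and *Ticam1*, the receptor and the adaptor of the TRIF branch, in opposite directions. Over 32 *APOE*-TR mice, with sex and exposure in the model, 2 of 10 members passed a 5% FDR, against 5.94% of 15972 genes (948 DEGs). *Tlr3* was 13.9% lower in *APOE*4 (11.3 against 13.5 CPM, log2 difference −0.22, SE 0.05, adjusted p = 0.0191), and *Ticam1* was 17% higher (5.2 against 4.49 CPM, 0.23, SE 0.07, adjusted p = 0.0473). The median over the members was −0.13, and that over all genes was 0.00.

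The *Tlr3* difference was below 0 in both sexes and both exposures. In control males *APOE*3 mice were at 13.9, 12.4, 13.7 and 13 CPM and *APOE*4 mice at 11.3, 12.2, 10.4 and 11.6 CPM, and in nPM males *APOE*3 mice were at 13.1, 13.2, 13.3 and 13.1 CPM and *APOE*4 mice at 12.3, 12.5, 10.9 and 10.9 CPM. Every *APOE*4 male was below every *APOE*3 male of the same exposure, with an exact p of 0.0286 in each pair, where 3.76% of genes separated among control males and 5.74% among nPM males. The log2 differences were −0.21 and −0.17.
In control females *APOE*4 mice, at 12.2, 14.3, 11 and 9.48 CPM, overlapped with the *APOE*3 mice at 13.7 to 18.2 CPM (−0.38), and in nPM females the difference was −0.09. No member separated by allele in nPM females, where 5.85% of genes did. *Tlr3* passed the 5% FDR in each of the 32 fits that left out a mouse (−0.24 to −0.19, highest adjusted p 0.0364), in males only (−0.19, adjusted p = 0.0294, with 1.8% of genes called) and without both extreme *APOE*3 female controls (−0.17, adjusted p = 0.0411). It missed in females only (−0.24, adjusted p = 0.0575, where 23.4% of genes and, of the members, only *Traf6* were called) and when the length slope of each library entered the model (−0.14, adjusted p = 0.121). Adjusted p over the 13 settings tried ran from 0.00373 to 0.121.

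The *Ticam1* difference between alleles was seen among controls. Among controls, *APOE*3 males were at 3.74, 4.7, 4.82 and 4.31 CPM and *APOE*4 males at 5.19, 5.95, 5.38 and 5.73 CPM, without overlap (0.31, exact p = 0.0286). Among control females *APOE*3 mice were at 3.95, 2.74, 5.12 and 3.33 CPM and *APOE*4 mice at 5.51, 5.61, 4.93 and 5.25 CPM, which overlapped (0.53). With nPM the alleles overlapped, at 4.52, 5.2, 5.84 and 5.31 CPM against 4.83, 5, 5.19 and 5.17 CPM in males and 4.9, 4.27, 4.42 and 4.69 CPM against 4.62, 5.61, 4.93 and 4.37 CPM in females, *APOE*3 given first.
*Ticam1* passed the 5% FDR in 12 of the 32 fits that left out a mouse (0.18 to 0.25). It missed in males only (0.14, adjusted p = 0.522), in females only (0.31, adjusted p = 0.0565) and without both extreme *APOE*3 female controls (0.15, adjusted p = 0.0882). It also missed without the filter, without TMM, by edgeR and with the length slope in the model (0.13). Its adjusted p over 13 settings ran from 0.0261 to 0.522.

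**Figure D3:**
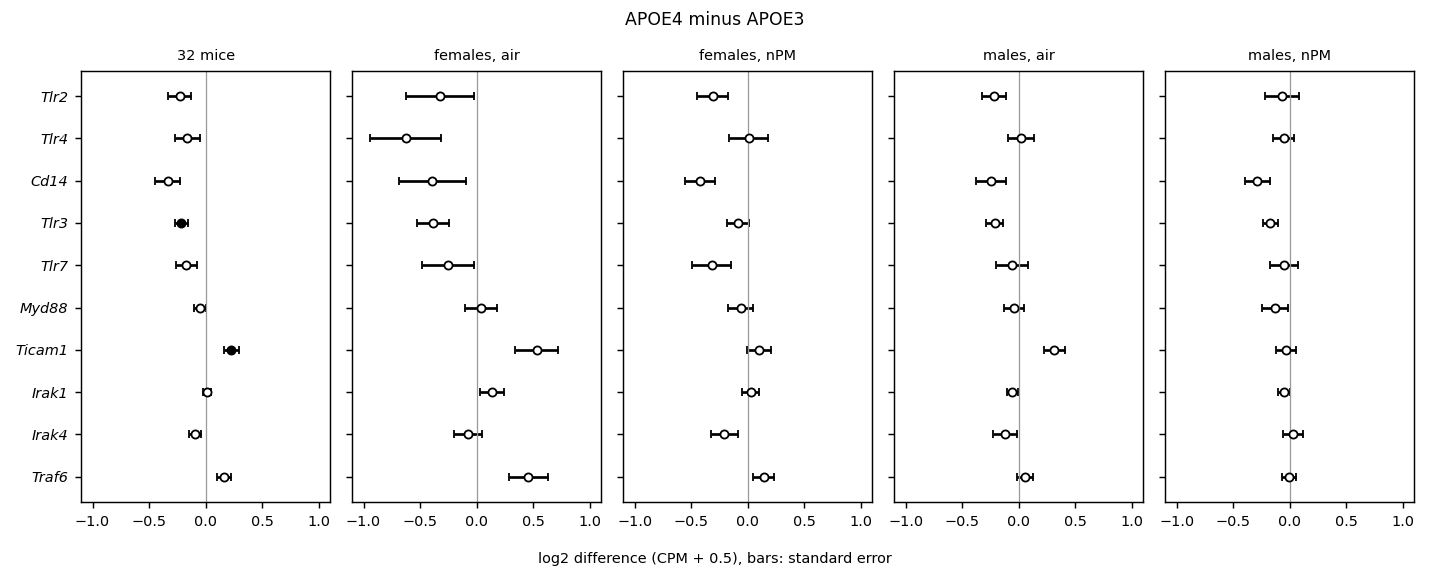
Log2 difference (APOE4 minus APOE3) of each gene over 32 APOE-TR mice and in each of the 4 combinations of sex and exposure, with bars of 1 SE and filled points for genes past a 5% FDR. A reader should see Tlr3 below 0 in all 4 (−0.38 to −0.09) and Ticam1 above 0 in both control pairs (0.53 and 0.31) but near 0 with nPM (0.10 and −0.04).

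Among the other members, *Cd14* was nearest to the allele threshold, at 2.04 CPM in *APOE*4 against 2.7 CPM in *APOE*3 (−0.34, SE 0.11, adjusted p = 0.0587). Its difference was below 0 in all 4 combinations of sex and exposure, at −0.39, −0.42, −0.25 and −0.29. Among control females 1 mouse, *APOE*4 control 21, had 5.74 CPM of *Cd14* against 1.94 to 2.41 CPM in the other 3, and the same mouse had the highest *Tlr2*. Without it *Cd14* was −0.41 and *Tlr2* −0.29 over the *APOE*-TR mice, and both then passed the 5% FDR. *Cd14* passed it in 6 of the 32 fits that left out a mouse.
*Tlr2* in the full fit was −0.23 (SE 0.10, adjusted p = 0.0986), and *Tlr4* (−0.16) and *Tlr7* (−0.17) had the same sign without passing. *Traf6* was 18.4 CPM in *APOE*4 and 17 CPM in *APOE*3 (0.16, adjusted p = 0.0862), and without the mice numbered 61 and F6 the difference was 0.08. In control females *Traf6* was 16.2, 16.8, 16.8 and 16.8 CPM in *APOE*4 and 15, 9.71, 15.1 and 11.3 CPM in *APOE*3, which did not overlap, and neither did 29.1% of all genes in that pair. *Irak1* (0.01), *Myd88* (−0.05) and *Irak4* (−0.10) differed little. Within the 4 combinations no member passed a 5% FDR, against 0.231% of genes in control females, 0.145% in nPM females, 0.433% in control males and 0.474% in nPM males. Of 40 exact tests 4 reached the smallest possible p, and the lowest adjusted p was 0.254. When B6 mice were added to the fit (48 mice), 0 of 6 members were called for allele, against 0.378% of genes.

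The nPM difference of *Ticam1* itself depended on the allele in the model of 32 mice. *Ticam1* was 0.27 higher with nPM in *APOE*3 mice (SE 0.09, unadjusted p = 0.00356) and 0.12 lower in *APOE*4 mice (−0.12, unadjusted p = 0.188), and the difference between them was −0.39 (SE 0.12, unadjusted p = 0.00336, adjusted p = 0.443). It was the only 1 of 10 members called, against 0.726% of 15972 genes. The nPM difference in *APOE*3 mice used the same control animals as the allele difference among controls, so the 2 are not separate observations. Within *APOE*3 mice 9.65% of genes were called for nPM in that model and within *APOE*4 mice 0.119%. The nPM differences within each allele were not refitted without mice 61 and F6. These mice had the lowest *Ticam1* of the *APOE*3 female controls, at 2.74 and 3.33 CPM, against 3.95 and 5.12 CPM. With nPM the *APOE*3 females were at 4.27 to 4.9 CPM. In *APOE*3 females alone the nPM difference of *Ticam1* was 0.32 in the main fit (unadjusted p = 0.13). Over 13 settings it ran from 0.03 to 0.36, and the lowest value was the fit without mice 61 and F6.
When each mouse was left out, the difference between alleles was −0.47 to −0.32 and kept its call in 17 of 32 fits. It was −0.35 in males only (unadjusted p = 0.0116), −0.43 in females only (unadjusted p = 0.062), −0.24 without both extreme *APOE*3 female controls (unadjusted p = 0.0186) and −0.29 with the length slope in the model (unadjusted p = 0.013). For *Tlr3* the difference of the nPM differences was 0.17 (unadjusted p = 0.0813), from −0.22 in *APOE*3 mice (unadjusted p = 0.00266, past the threshold for nPM, as *Ticam1* was) and −0.05 in *APOE*4 mice (unadjusted p = 0.46). The difference between alleles did not pass for *Tlr3*.

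**Figure D4:**
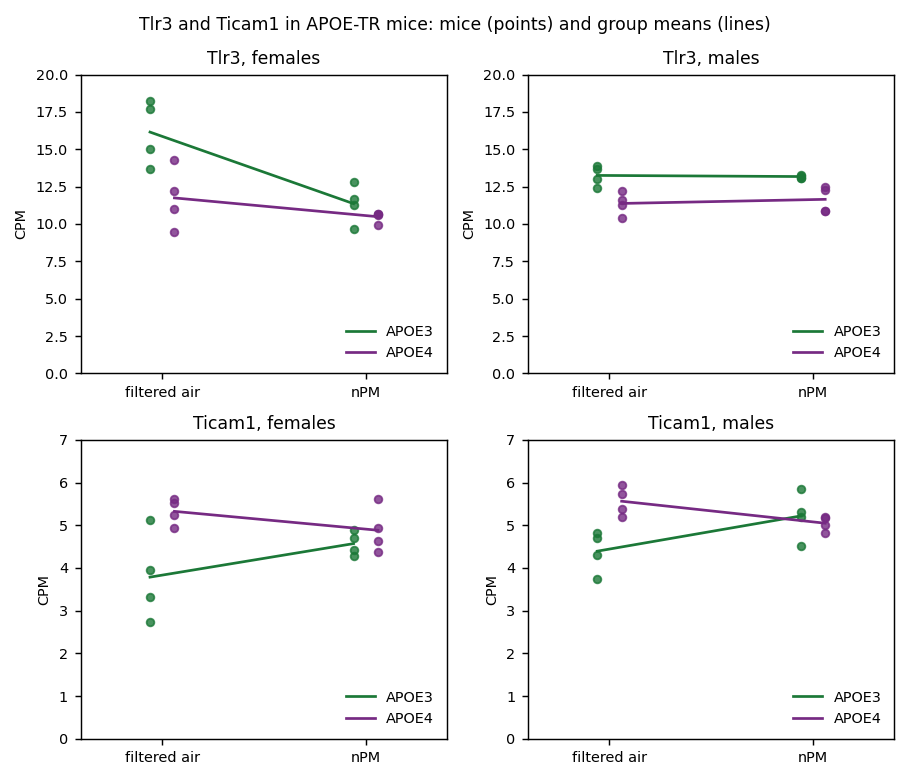
Tlr3 and Ticam1 in CPM in the 8 APOE-TR groups, with filtered air and nPM on the horizontal axis, 1 point for each mouse (green for APOE3, purple for APOE4) and lines that join group means. A reader should see APOE4 males below APOE3 males for Tlr3 in both exposures and, for Ticam1, APOE3 controls (2.74 to 5.12 CPM) mostly below APOE4 controls (4.93 to 5.95 CPM).

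Several members differed between the sexes, and in the *APOE*-TR libraries sex, depth and length slope cannot be told apart. In *APOE*-TR mice 6 of 10 members passed a 5% FDR, against 60.4% of all genes. Higher in females were *Cd14* (2.85 against 1.89 CPM, 0.41), *Tlr4* (2.56 against 1.74 CPM, 0.36), *Tlr7* (4.05 against 3.07 CPM, 0.31) and *Tlr2* (1.62 against 1.19 CPM, 0.26). *Traf6* (15.6 against 19.7 CPM, −0.35) and *Irak1* (30.7 against 33.9 CPM, −0.15) were lower. With the length slope in the model 1 member was called, *Tlr3* at −0.22, and the sign turned for *Tlr2* (−0.05), *Tlr4* (−0.20) and *Traf6* (0.01). Every female slope (−0.44 to 0.02) lay below every male one (0.05 to 0.13), so that fit cannot separate slope from sex.
In B6 mice 2 of 6 members passed, against 26.1% of genes. *Ticam1* in B6 females was 4.81, 3.61, 4.04 and 5.87 CPM in controls and 2.54, 3.26, 5.82 and 3.49 CPM with nPM, and in B6 males 8.58, 9.14, 11.2 and 8.87 CPM in controls and 12.1, 6.52, 8.41 and 7.28 CPM with nPM, so all 8 females lay below all 8 males. How many of all genes separated the B6 sexes in this way was not counted. The log2 difference of *Ticam1* was −1.05 (SE 0.21, adjusted p = 0.00126), and it passed in all 16 fits that left out a mouse. *Tlr3* was higher in B6 females (8.26 against 4.61 CPM, 0.75, adjusted p = 0.046) and passed in 3 of those 16 fits. Cell type markers also differed between the B6 sexes. Summed neuronal markers had control and nPM means of 6210 and 5227 CPM in females and 3157 and 3995 CPM in males. Summed oligodendrocyte markers went the other way, at 1407 and 1409 CPM in females and 1963 and 1732 CPM in males. Their part in these differences was not tested. Over all 48 mice 3 of 6 members were lower in females, *Ticam1* (−0.44), *Irak1* (−0.23) and *Traf6* (−0.19), against 36.7% of genes called. *Traf6* was near the threshold (adjusted p = 0.0484) and passed in 15 of the 48 fits that left out a mouse. It missed without mice 61 and F6 (−0.12) and with the length slope in the model (−0.02). In B6 mice alone the *Traf6* difference was above 0 (0.15, unadjusted p = 0.427).

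Microglial markers moved with several of the same members. The summed level of 8 microglial markers was 344 to 474 CPM in *APOE*3 female controls, 257 to 494 CPM in *APOE*4 female controls, 251 to 341 CPM in *APOE*3 nPM females, 246 to 299 CPM in *APOE*4 nPM females and 233 to 285 CPM in *APOE*-TR males. The mean score of these markers was highest in *APOE*4 female control 21 (0.764), the mouse with the highest *Cd14*, *Tlr2* and *Tlr7*. It was 0.35 to 0.54 in the *APOE*3 female controls, the group with the highest means of *Tlr2*, *Tlr3*, *Tlr4*, *Tlr7* and *Cd14*. Its high marker level was not particular to microglia. Among *APOE*-TR groups it also had the highest mean sums of oligodendrocyte (5470 CPM), astrocyte (4274 CPM), neuronal (5907 CPM) and border macrophage (5.12 CPM) markers. The same held for neutrophil and blood markers (92.1 CPM), but not for endothelial ones (42.8 CPM). In whole cortex fewer cells of a type and less RNA in each cell cannot be told apart.
None of the 8 markers was called for nPM or for allele over *APOE*-TR mice, and their median allele difference was −0.14, close to that of the 10 members. Of 7 astrocyte markers 2 (*Aqp4* and *Gja1*) were called for allele, both lower in *APOE*4, at a median of −0.18 over the list, and their summed level per mouse was 3461 to 3820 CPM in *APOE*4 males against 3853 to 4132 CPM in *APOE*3 males. Between nPM and control *APOE*3 females the median difference of the 8 microglial markers was −0.48. All 5 endothelial markers were lower in *APOE*-TR females (median −1.54, summed levels of 28.7 to 55.7 CPM against 68.3 to 116 CPM in males), and 4 of 8 microglial markers were higher. The part of cell makeup in the member differences was not tested.

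**Figure D5:**
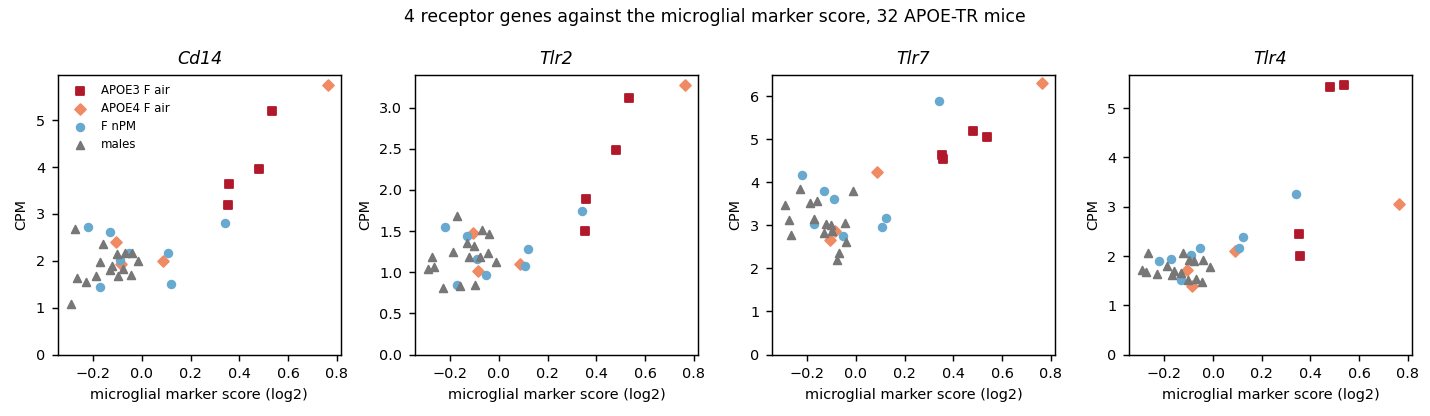
Level in CPM of Cd14, Tlr2, Tlr7 and Tlr4 against the mean log2 score of 8 microglial markers in the 32 APOE-TR mice, 1 point for each mouse, with both control female groups, nPM females and males marked apart. A reader should see APOE4 female control 21 at the far right, with a score of 0.764, and the APOE3 female controls between 0.35 and 0.54, above the bulk of the other mice.

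After group means were removed, the genes whose values varied most like a member's among 13756 genes in the 32 *APOE*-TR mice were named by Pearson's r, as a description. For *Tlr2* they were *C1qa* (r = 0.825), *Ifi35* (0.82) and *Ctsd* (0.789), followed by *Cd14* (0.787), and r with *C1qa* was 0.682 without the 2 mice farthest from the median of *Tlr2*. For *Cd14* they were *Ctsz* (0.828), *Lgmn* (0.805) and *Tlr2* (0.787), and for *Tlr3* they were *Adgre1* (0.801), *Hnrnpf* (0.783) and *Fcgr3* (0.78). Several of these, such as *C1qa*, *Ctsz*, *Adgre1* and *Fcgr3*, are known as macrophage or microglial genes. *Tlr4* instead went with *Bet1* (0.913), *Tpmt* (0.909) and *Hadhb* (0.901), and *Tlr7* with *Taf9b* (0.711), *Pde3b* (0.7) and *C3ar1* (0.68). Without the 2 farthest mice the *Tlr7* values fell to 0.566, 0.448 and 0.406, that of *Cd14* with *Ctsz* was 0.566, that of *Tlr3* with *Adgre1* was 0.719 and that of *Tlr4* with *Bet1* was 0.886. For *Tlr4* those 2 mice were *APOE*3 female controls 52 and F6. Control 61, with the highest *Tlr4* of the *APOE*-TR mice (5.48 CPM) and the lowest length slope, stayed in. The points share their libraries, so depth and RNA quality are common to every gene compared.

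The other 58 listed genes of the pathway gave few calls for nPM and none for allele. For nPM, none of 44 tested was called over *APOE*-TR mice and none of 24 over B6 mice or over 48 mice, at medians of −0.03, 0.00 and 0.03. By role, 0 of 6 other receptors, 0 of 5 co-receptors and ligand carriers, 0 of 4 adaptors, 0 of 14 kinases and ligases and 0 of 5 inhibitors were called in *APOE*-TR mice. Of 13 target cytokines and enzymes, 2 had reads in every *APOE*-TR mouse and neither was called. Among the 6 pairs of groups 1 gene was called, *S100a8*, a neutrophil protein that binds *Tlr4*, lower with nPM in *APOE*3 males. It was at 0.191 against 0.516 CPM (−0.53, unadjusted p = 0.00292, adjusted p = 0.9999). The summed neutrophil and blood markers, which include *S100a8*, ran from 13.8 to 68.1 CPM in these nPM males and 23.2 to 59.4 CPM in their controls.
For allele 0 of the 44 passed a 5% FDR, against 5.94% of all genes. An unadjusted p under 0.05 was found for 11 of the 44, against 38.4% of all genes. For sex 19 of 44 passed in *APOE*-TR mice, 9 higher and 10 lower in females, a smaller share than the 60.4% of all genes. They included *Hmgb1*, a nuclear protein that engages *Tlr4* when released (0.80), *Unc93b1*, the chaperone that carries *Tlr3* and *Tlr7* to endosomes (0.49), and *Sigirr*, an inhibitor of receptor signalling (−0.56). In B6 mice 7 of 24 passed for sex, near the 26.1% of all genes, among them *Nfkbia*, the NF-κB inhibitor (−1.29), and *Ube2n*, the enzyme that builds ubiquitin chains with *Traf6* (0.96).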

How the data were processed

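Per the labels and the methods, cortical RNA was sequenced from TRUseq stranded mRNA libraries, single-end, and unique reads with at most 3 mismatches were aligned by the authors to mm10 (RefSeq) with TopHat2 2.0.8b in Partek Flow. The deposited values are CPM, 1 table for each exposure experiment, and how the authors scaled them is not given in the sources used here. They fall on steps that give whole reads in the *APOE*-TR table, and in the B6 table reads are estimates. The planned count test therefore gave way to limma 3.58.1 (R 4.3.3, trend) on log2(CPM + 0.5) after TMM (edgeR 4.0.16), on genes with reads in every mouse fitted, adjusted over all of them. nPM and interactions were called at an unadjusted p under 0.005, allele and sex at 5% FDR; the study's methods name both thresholds but not which contrast each served. edgeR and DESeq2 1.42.0 on recovered reads were alternatives. Fits were tested on simulated data. Exact tests used 70 labelings. Repeated rows (4 in each table) were left out. One *APOE*3 female control column, F6, matches no animal number and was used by its group. Each sample is 1 mouse. The members and lists were chosen with earlier results of these data known. Every member is named, and other genes by rank of p within the 58 listed. CPM depends on the rest of each library, so a few abundant genes can shift it.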

Additional observations from a re-analysis of the deposited data

Results flagged for a closer look

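A single mouse stood apart from the other 3 of its group in 5 of the 120 sets of 4 mice (10 genes in 12 groups), by the gap to the nearest mouse over the range. Chance gives about 1 in 20 such sets, or 6 here. *Cd14* was 5.74 CPM in *APOE*4 female control 21, against 1.94 to 2.41 CPM in the others. *Tlr3* was 9.95 CPM in *APOE*4 nPM female 27, against 10.6 to 10.7 CPM. *Irak1* was 8.49 CPM in B6 female control 43, against 10.8 to 11 CPM. *Irak4* was 0.726 CPM in *APOE*4 nPM male 93, against 0.824 to 0.841 CPM. *Traf6* was 16.2 CPM in *APOE*4 female control 7, against 16.8 CPM in the other 3. The nPM difference of *Ticam1* differed between *APOE*3 and *APOE*4 mice by −0.391 on the log2 scale, with an unadjusted p of 0.00336 and an adjusted p of 0.443.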

How the results depend on the processing

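In all, 2221 results were recomputed under an alternative, and 2170 kept their side of the threshold. Of the rest, 30 fell short of it, 18 came to pass it and 3, past it in the main fit, changed sign. Among the 2170 were 112 results not past the threshold that changed sign. The length slope was lower in every *APOE*-TR female library than in every male one, so fits with it cannot separate slope from sex there. With the length slope of each library in the model, the *APOE*-TR sex difference of *Tlr2* became −0.0498, of *Tlr4* −0.198 and of *Traf6* 0.0101, and 1 member was called for sex in place of 6, 0 for allele in place of 2, 0 for the allele dependence of nPM in place of 1 and, in B6 mice, 1 for sex in place of 2. For allele 1 member was called, *Tlr3*, without the filter, without TMM, by edgeR, in males only and without both extreme *APOE*3 female controls, and 1, *Traf6*, in females only. For the allele dependence of nPM 0 were called in males only, in females only and without those 2 mice. B6 sex calls fell to 1 without the filter and with voom, and sex calls over 48 mice rose to 5 with voom and ComBat. Within single pairs of groups, where none was called, nPM calls were 1 with the spread shared over 12 groups, 2 with it shared within each exposure and 2 by DESeq2, and allele calls were 4 with it shared. Those settings called 10.6% of all genes in B6 females, 31.4% and 2.84% in *APOE*3 females and, for allele, 55.3% in control females. Leaving out each mouse gave 1 to 3 calls for allele, 0 to 1 for its dependence on nPM, 0 to 1 for nPM over *APOE*-TR mice, 0 to 1 for allele within pairs of groups, 6 to 7, 1 to 3 and 2 to 4 for sex in *APOE*-TR, B6 and all mice, and 0 to 0 for the others. The cause was not tested. No paired analysis was possible because replicate numbers are animal numbers that tie no mouse to another group. Counts were low for *Tlr4*, *Tlr2*, *Cd14* and *Irak4* in B6 mice, where 11, 7, 5 and 8 of 16 libraries held under 10 reads. With 4 mice a group, small differences could not be detected.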
